A study of Mus musculus with 15 samples.

Results

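Ifi202b and 7 genes that lie near it on mouse chromosome 1, Ifi203, Ifi204, Aim2, Pex19, Igsf8, Dusp23 and Olfml2b, were followed across hearts of Lmna H222P heterozygous and control mice. Every probe set annotated to exactly 1 gene symbol, that symbol being 1 of these 8, was taken: 10 probe sets of the 34958 with a single symbol, and 8 genes of 18194. Pex19 had 3 probe sets and each of the other 7 genes had 1. The genes were chosen by their place on chromosome 1 together with the heterozygous against control differences of these same arrays, already known, so those differences are given below as a description, with no test on these 10 probe sets.

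The arrays held 7 hearts of mice heterozygous for H222P, an amino acid substitution in the A-type lamins encoded by Lmna, and 8 hearts of control mice. All were whole hearts of males aged 10 weeks, and biotin-labelled total RNA of each was hybridised to 1 single-colour Affymetrix array. The labels number the males within each group and name neither strain, litter nor hybridisation batch, and they do not describe the control genotype further. The number of arrays limits the precision of every value, and p-values measure only the spread between these 15 samples.

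Ifi202b, Ifi203, Ifi204 and Aim2 belong to the Ifi200 family, a cluster of interferon-inducible genes whose proteins bind DNA through HIN domains and in most cases carry a pyrin domain for binding partners. AIM2 senses DNA in the cytosol and assembles an inflammasome with ASC and caspase-1, and p202, the product of Ifi202b, has HIN domains but no pyrin domain and restrains AIM2. Expression of Ifi202b is known to differ widely between inbred mouse strains. The other 4 genes have unrelated roles: Pex19 encodes the chaperone that delivers membrane proteins to peroxisomes, Igsf8 a membrane immunoglobulin-superfamily protein that binds the tetraspanins CD9 and CD81, Dusp23 a small atypical dual-specificity phosphatase, and Olfml2b a secreted glycoprotein with an olfactomedin domain.

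In the RefSeq gene order the members run Olfml2b, Pex19, Igsf8, Dusp23, Aim2, Ifi204, Ifi203, Ifi202b. RefSeq's GRCm38.p6 promoter table, which covers 250 bases before to 50 after each start, had an entry for 6 of the 8, not for Ifi204 and Pex19. The windows of Ifi202b (chr1:173982795-173983094, minus strand), Olfml2b (chr1:170644282-170644581, plus strand), Igsf8 (chr1:172312117-172312416, plus strand) and Dusp23 (chr1:172632925-172633224, minus strand) are shown because they are the 4 genes with both an entry and a probe set that passed the threshold given below. Capitals mark the GC box GGGCGG, read on either strand, and the Ifi202b window, which holds none, is all in lower case.
Ifi202b: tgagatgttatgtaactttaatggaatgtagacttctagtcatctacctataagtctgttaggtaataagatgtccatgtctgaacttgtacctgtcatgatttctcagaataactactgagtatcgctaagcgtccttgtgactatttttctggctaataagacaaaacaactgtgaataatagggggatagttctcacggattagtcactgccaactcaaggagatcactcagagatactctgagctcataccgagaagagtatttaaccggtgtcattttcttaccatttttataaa
Olfml2b: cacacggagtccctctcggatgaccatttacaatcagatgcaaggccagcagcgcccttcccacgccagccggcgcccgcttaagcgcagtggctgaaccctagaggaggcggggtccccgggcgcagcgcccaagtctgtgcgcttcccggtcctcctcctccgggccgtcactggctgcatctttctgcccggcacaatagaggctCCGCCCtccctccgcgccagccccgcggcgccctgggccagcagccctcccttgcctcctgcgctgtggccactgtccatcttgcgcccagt
Igsf8: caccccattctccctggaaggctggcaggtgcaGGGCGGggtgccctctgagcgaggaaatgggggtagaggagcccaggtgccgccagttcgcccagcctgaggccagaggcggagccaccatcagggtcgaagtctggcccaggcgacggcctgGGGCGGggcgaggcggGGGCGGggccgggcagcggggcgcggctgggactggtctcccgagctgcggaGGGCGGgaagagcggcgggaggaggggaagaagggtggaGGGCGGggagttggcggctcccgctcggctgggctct
Dusp23: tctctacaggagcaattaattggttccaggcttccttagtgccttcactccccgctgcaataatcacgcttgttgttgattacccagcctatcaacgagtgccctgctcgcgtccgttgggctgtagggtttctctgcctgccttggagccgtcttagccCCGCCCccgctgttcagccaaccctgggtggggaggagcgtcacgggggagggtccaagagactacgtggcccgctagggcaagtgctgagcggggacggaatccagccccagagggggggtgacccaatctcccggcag
The Ifi202b window had 37.0% G and C, against 69.0% for Olfml2b, 74.3% for Igsf8 and 61.3% for Dusp23. GC boxes, in 35.7% of all 32851 promoters of the table, number 5 in Igsf8 and 1 each in Olfml2b and Dusp23.

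The interferon-stimulated response element was searched on both strands as GAAA, 2 bases of any kind (NN) and GAAA again and was present in 1131 of the 32851 promoters, 3.44%. Of the 12 Ifi200 family genes with an entry, 14 promoters in all, 9 held it in at least 1 promoter, a count by gene where the share above is by promoter. Ifi203 held it at its second listed start and not at its first. The windows of Ifi202b, Aim2 and Ifi209 held no match. The 30 bases around the match are shown for Ifi203, at its second listed start (chr1:173942508-173942537, minus strand), and for its neighbours Mndal (chr1:173880204-173880233, minus strand), Ifi207 (chr1:173741831-173741860, minus strand) and Ifi213 (chr1:173599326-173599355, minus strand), to set the shared element beside the Ifi202b window that lacks it. Capitals mark the element.
Ifi203: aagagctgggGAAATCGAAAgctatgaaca
Mndal: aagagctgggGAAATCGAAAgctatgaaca
Ifi207: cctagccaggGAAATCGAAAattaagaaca
Ifi213: cgtctctgagGAAATCGAAAgctatgaacc
The element of Ifi203 begins 35 bases before that start, those of Mndal 36, Ifi207 41 and Ifi213 73. Ifi203 and Mndal share all 30 bases shown. A match or its absence describes the letters in these windows of the reference genome only.

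The table holds 1 signal per probe set and array, scaled by the submitters so that the mean of all values after trimming 2% at each end was 250.0 on every array, with medians of 56.7 to 94.2. Lmna itself had 5 tested probe sets, of which 0 passed the limma threshold given below, with differences of -0.65 to 0.43 (log2, heterozygous minus control). The brightest had signals of 529.4, 771.5 and 1063.1 (lowest, median, highest) in heterozygous hearts and 367.0, 588.95 and 878.6 in control hearts (limma adjusted p = 0.349). A substitution of this kind need not alter the transcript level, so this does not check the labels. The 3′ to 5′ signal ratio of the Actb control probe sets was 1.26 to 3.23 in heterozygous hearts and 1.23 to 2.34 in control hearts. Summed signals of 10 atrial markers ran from 11599 to 42723 in heterozygous hearts and from 7428 to 12061 in control hearts. Nppa, with geometric means of 12713 in heterozygous and 6947 in control hearts, weighs most in these sums. On the brightest probe sets of Sln, Myl7 and Myl4, 7 of 8 control hearts lay below every heterozygous heart. Control heart 6 was the exception, at 1212.9 for Myl7, against 24.7 to 120.1 in the other control hearts and 451.9 to 5877.5 in heterozygous hearts. The share of atrial tissue in each heart was not measured. Summed signals of 8 erythroid and platelet markers ran from 1840 to 3426 in heterozygous hearts and from 3608 to 4505 in control hearts, without overlap. Heterozygous hearts 1 and 7 stood apart in interferon-stimulated genes, as described below. In whole hearts, fewer cells of a type and less RNA per cell cannot be told apart.

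Of the 10 probe sets, 5 passed the threshold of a limma adjusted p under 0.05 over all 38870 probe sets tested, 3 higher and 2 lower in heterozygous hearts, against 0.252% of all probe sets in either direction (0.0900% higher and 0.162% lower). In 4 the groups did not overlap, against 0.468% of all probe sets, 2 of the 4 wholly above the controls (0.188% of all) and 2 wholly below (0.280%). Both counts follow from the choice of the genes. The passing probe sets belonged to 5 genes: Ifi202b, Igsf8 and Olfml2b were higher, Dusp23 and 1 of the 3 Pex19 probe sets lower. The median difference of the 10 probe sets was 0.33 (log2, heterozygous minus control), against -0.11 over all probe sets tested.

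**Figure D1:**
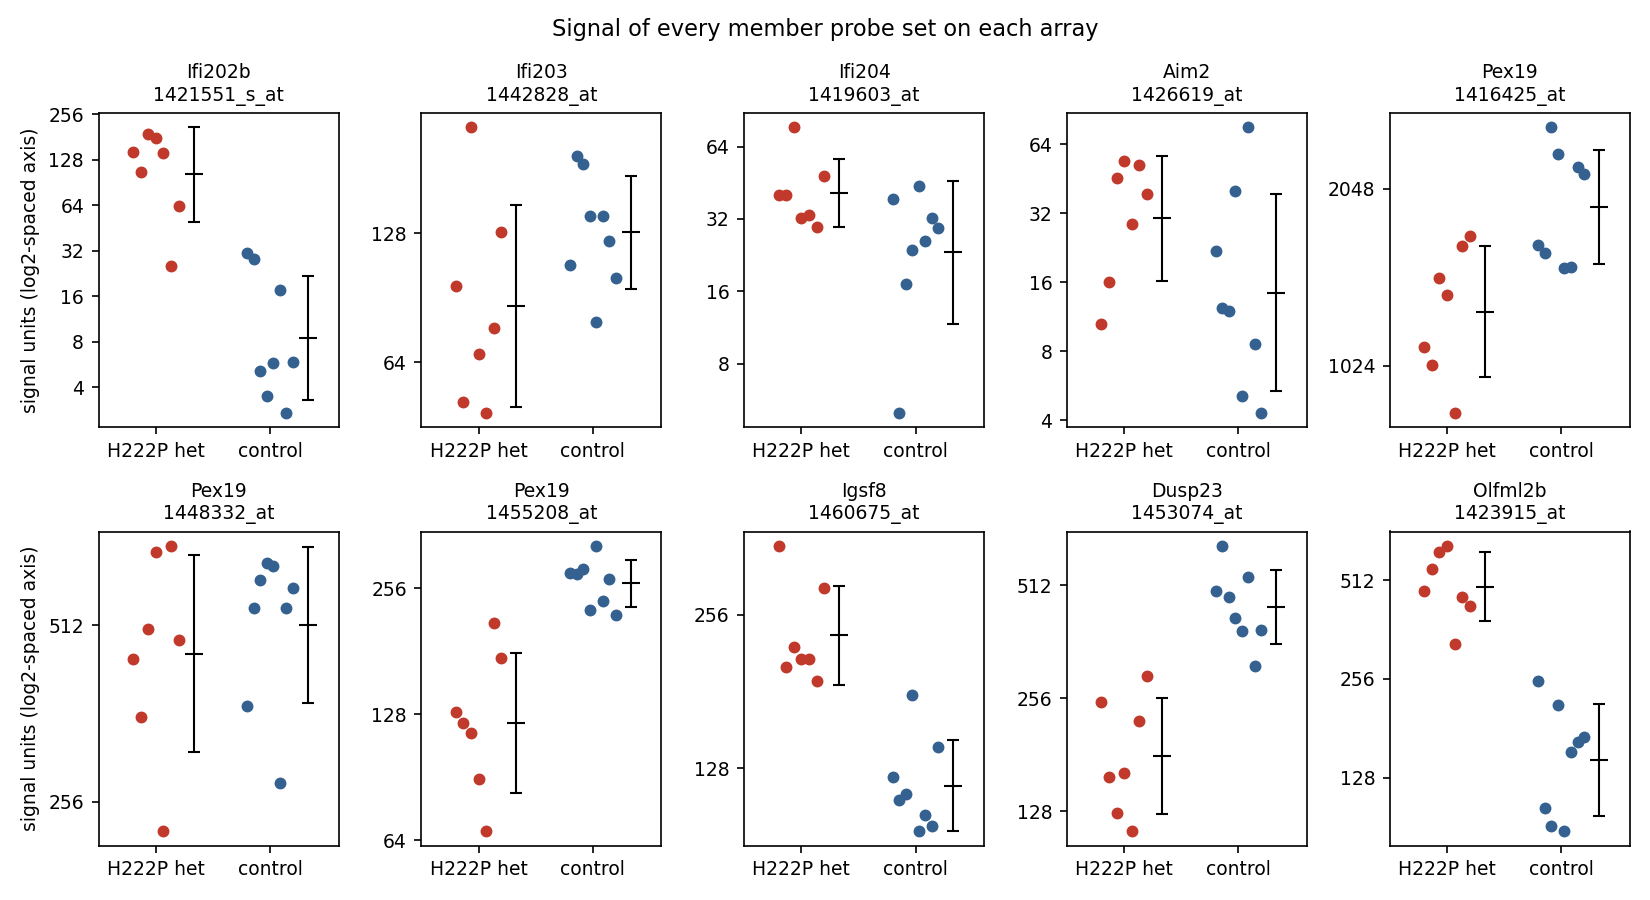
Deposited signal (log scale) of each of the 10 probe sets on each array, Lmna H222P heterozygous hearts left of control hearts in every panel; each point is 1 array, and the horizontal and vertical bars give the mean and SD of the log2 signal. Igsf8 and Olfml2b lie wholly higher, and Dusp23 and 1 Pex19 probe set wholly lower, in the 7 heterozygous hearts than in the 8 control hearts, while 1 heterozygous heart lies among the controls for Ifi202b.

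On the deposited scale Ifi202b had the widest difference of the 10 probe sets, against control signals near the low end of the arrays. Its signals were 25.3, 142.3 and 189.3 (lowest, median, highest) in heterozygous hearts and 2.7, 5.85 and 31.1 in control hearts. Hearts 1 to 5 and 7 of the heterozygous group lay above all 8 control hearts, and heterozygous heart 6, at 25.3, lay below control hearts 1 and 2, at 31.1 and 28.2. The log2 signal averaged 6.68 ± 1.04 (SD, n = 7) in heterozygous hearts and 3.08 ± 1.37 (SD, n = 8) in control hearts, a difference of 3.60 (SE 0.62). Only 10 of the 15 values exceeded the log2 signal of 4 used to filter dim probe sets. In heterozygous hearts the signal was above the array's own median on 5 of 7 arrays, and in control hearts on 0 of 8, at percentiles of 1.58 to 26.2 within the array. The size of the difference is therefore not fixed by these arrays. With every value raised to at least 6 on the log2 scale it was 0.87, smaller than that of Olfml2b, Dusp23, Igsf8 and the dimmest Pex19 probe set, and Ifi202b then did not pass, nor did it with the filter set at 6.

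A second probe set annotated to both Ifi202b and LOC100044068, and so not among the 10, had a like pattern. Its signals were 35.8, 119.9 and 216.1 in heterozygous hearts and 1.9, 6.85 and 38.2 in control hearts, a log2 difference of 3.69. Again heterozygous heart 6 was the lowest of its group and 1 control heart lay above it. After removal of the group means the 2 probe sets had a Pearson r of 0.69 over the 15 arrays, which they share, so the value is a description. Both carry the suffix that marks probes matching several transcripts of a family, and Ifi200 genes are near-identical over long stretches, so neither is a separate check on Ifi202b alone and both signals may include other family members.

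Ifi203, a pyrin and HIN domain gene next to Ifi202b in the measured order, had signals of 48.8, 77.0 and 225.8 in heterozygous hearts and 79.4, 131.45 and 193.1 in control hearts. Heterozygous hearts included both the lowest 4 values and the highest value, that of heart 3, so the groups overlapped. The log2 difference was -0.57 (SE 0.33). Among 3 further probe sets annotated to Ifi203 together with a pseudogene, the differences were -0.01, 0.15 and 0.70, and in all 3 the groups overlapped.

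Ifi204, a mouse relative of human IFI16, had signals of 29.6, 40.3 and 77.0 in heterozygous hearts and 5.0, 27.7 and 43.9 in control hearts. The groups overlapped, with 5 of 7 heterozygous hearts inside the control range, and control heart 2 alone was at 5.0. The log2 difference was 0.81 (SE 0.39). A probe set annotated to Ifi204, Ifi205, Ifi211 and Mndal together differed by 0.36.

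Aim2 had signals of 10.5, 38.8 and 54.1 in heterozygous hearts and 4.3, 12.15 and 76.0 in control hearts. All 7 heterozygous hearts lay inside the range of the controls, of which heart 6 was the highest of all 15. The log2 difference was 1.08 (SE 0.61). With values raised to at least 6 on the log2 scale it was -0.03. Only control heart 6 exceeded that floor, so the floored value measures no difference between the groups. Of the 15 Aim2 values 9 exceeded the filter's log2 signal of 4, and every array read Aim2 and Ifi204 below its own median.

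The other Ifi200 genes with a single-symbol probe set were Ifi207, Ifi209, Ifi213 and Mndal, and 0 of these 4 passed the limma threshold, against 0.289% of all 16627 genes taken by their brightest probe set; 2 of the 4 had an unadjusted p under 0.05. Ifi213 differed by -1.24 (limma adjusted p = 0.226) on its brighter probe set and by -0.70 (adjusted p = 0.602) on the other. The 2 probe sets of Ifi209 differed by -0.71 (limma adjusted p = 0.258) and -1.20 (adjusted p = 0.355). Mndal differed by 0.14 (limma adjusted p = 0.687) and -0.12 (adjusted p = 0.858), and Ifi207 by 0.03 (adjusted p = 0.959). The median difference of the 4, each by its brightest probe set, was -0.34, against -0.08 over all genes.

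Interferon-stimulated genes other than the members were measured for 32 of 35 listed genes. 18 of them were higher and 14 lower, 0 passed the limma threshold and 4 had an unadjusted p under 0.05, with a median difference of 0.09. The genes with the smallest p were Rsad2, which encodes viperin, at -0.85 (limma adjusted p = 0.107), and Oas3, an oligoadenylate synthetase, at -0.999 (limma adjusted p = 0.178). Oas3 was dim, below the array's own median on every array. The others of these 4, Ifitm3 and Ifi27, were higher, at 0.48 (limma adjusted p = 0.235) and 0.52 (adjusted p = 0.244). The mean log2 signal of the 32 genes was 8.36 ± 0.58 (SD, n = 7) in heterozygous hearts and 8.34 ± 0.09 (SD, n = 8) in control hearts, a difference of 0.02 (exact two-sided permutation p = 0.939 over 6435 relabellings). Heterozygous hearts 7 and 1 had the highest means, 9.44 and 8.82, above all control hearts, while the remaining heterozygous hearts ran from 7.86 to 8.37 and the control hearts from 8.24 to 8.47. The difference changed sign without heart 7, to -0.16, and without heart 1, to -0.06.

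**Figure D2:**
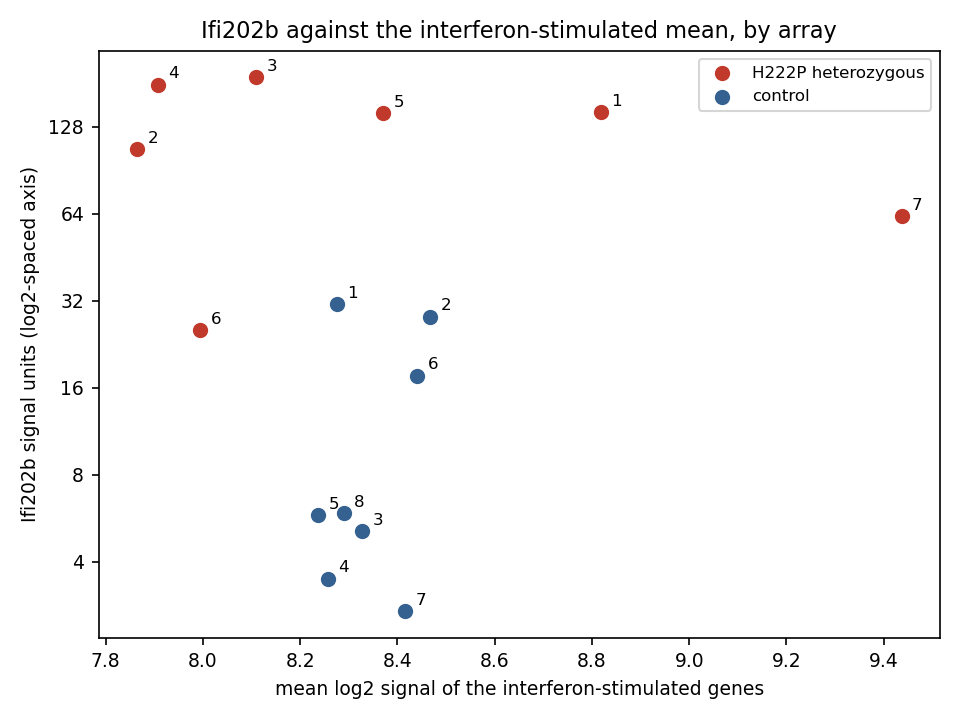
Signal of Ifi202b (log2-spaced axis) against the mean log2 signal of 32 interferon-stimulated genes; each point is 1 array, Lmna H222P heterozygous or control, with its replicate number. The heterozygous hearts with the highest interferon-stimulated means, 9.44 and 8.82, are not those with the highest Ifi202b signals.

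Ifi202b and this mean were compared within each genotype. Pearson's r between them was -0.11 (exact permutation p = 0.817) and Spearman's rho -0.07 (p = 0.906) over 7 heterozygous hearts, and r was 0.32 (exact permutation p = 0.417) and rho 0.21 (p = 0.619) over 8 control hearts. Without the 2 hearts farthest from the median of the interferon-stimulated mean, r was 0.20 in heterozygous and -0.40 in control hearts. The control-heart values rest on Ifi202b signals near the low end of the arrays. Heterozygous heart 7 had an Ifi202b signal of 62.8, above only heart 6 in its group, and heart 1 had 143.7. The same mean gave r of 0.34, 0.21 and -0.21 with Ifi203, Ifi204 and Aim2 over heterozygous hearts and 0.63, -0.62 and 0.27 over control hearts.

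Among 22 such relations within groups, 11 a group, 0 passed after Benjamini-Hochberg adjustment. The lowest adjusted p was 0.193 for Pearson's r and 0.504 for Spearman's rho. Ifi202b and Dusp23 had the highest r in control hearts, 0.83 (exact permutation p = 0.00875, adjusted 0.193), with rho 0.74 (p = 0.0458, adjusted 0.504), and r was 0.80 without the 2 hearts farthest in Ifi202b. In heterozygous hearts the same pair had r of -0.56 (exact permutation p = 0.196) and rho of -0.43 (p = 0.354). Whether the relation differs between genotypes was not tested. Control Ifi202b signals of 2.7 to 31.1 lay near the low end of the arrays, which limits each control-heart value with Ifi202b. After removal of group means over 15 arrays, the genes most like Ifi202b were Usp39 (r 0.88), Myl10 (0.87), H2-T24 (0.83), Rab43 (0.83) and Fam227b (0.83), none of them on chromosome 1. They share the arrays and their scaling, and limma adjusted p-values for their own differences ran from 0.497 for Rab43 to 0.861 for H2-T24.

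The AIM2 partners ASC (gene Pycard) and caspase-1 (Casp1) did not pass, at 0.27 (limma adjusted p = 0.457) and 0.47 (adjusted p = 0.743). Of 12 measured genes of the inflammasome and interleukin-1, 0 passed the limma threshold and 3 had an unadjusted p under 0.05, 5 were higher and 7 lower, and the median was -0.05. Nlrp3, another inflammasome sensor, differed by -0.97 (limma adjusted p = 0.192) and Il1rn, the interleukin-1 receptor antagonist, by -0.71 (adjusted p = 0.195). Il18, the remaining gene with an unadjusted p under 0.05, was higher, at 0.61 (limma adjusted p = 0.285). Of 14 genes of DNA sensing and interferon induction 0 passed and 0 had an unadjusted p under 0.05, the smallest being those of the nucleic acid sensor Zbp1 at -0.86 and the transcription factor Irf7 at -0.48. Of 13 genes of interferon receptors and signalling 0 passed the limma threshold and 0 had an unadjusted p under 0.05, the smallest being those of Jak2, a kinase bound to the receptors, at 0.39 and Irf2, a transcription factor, at 0.59.

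Markers of blood-derived cells, which are known to carry Ifi200 transcripts, were counted beside these values. Of 15 macrophage and monocyte markers 0 passed the limma threshold and 1 had an unadjusted p under 0.05, and their summed signal was 7491 to 17737 in heterozygous hearts and 8509 to 11537 in control hearts. Cd68 differed by 0.48 (limma adjusted p = 0.322) and the complement gene C1qc by 0.50 (adjusted p = 0.346). Of 10 lymphocyte markers 0 passed and 1 had an unadjusted p under 0.05, with sums of 482.7 to 887.4 in heterozygous hearts and 521.7 to 822.9 in control hearts. Among these 10, 2 were higher and 8 lower, with a median difference of -0.33. Cd4 differed by -1.31 (limma adjusted p = 0.296) and Ptprc, the common leukocyte antigen, by 0.44 (adjusted p = 0.437). Of 7 neutrophil markers 0 passed and 2 had an unadjusted p under 0.05, with sums of 202.3 to 4286 in heterozygous hearts and 285.5 to 593.8 in control hearts. S100a9, a calcium-binding protein of neutrophils, differed by 2.32 (limma adjusted p = 0.342), with signals of 6.4 to 1500.9 in heterozygous hearts and 3.9 to 62.3 in control hearts, and the chemokine receptor Cxcr2 by -0.88 (adjusted p = 0.330). No probe set of any kind reads 0, since the lowest signal in the table is 0.1, so a signal above 0 does not show that a cell type was present. The part of these markers in the Ifi202b difference was not tested.

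Pex19 gave 3 unlike readings. On its brightest probe set, signals were 850.7, 1347.7 and 1703.6 in heterozygous hearts and 1499.2, 1906.6 and 2604.7 in control hearts, a log2 difference of -0.59 (SE 0.18). Here 5 heterozygous hearts lay below all control hearts and hearts 6 and 7 lay within their range. On the middle probe set, signals of 227.7, 482.6 and 699.8 in heterozygous hearts and 275.8, 570.7 and 653.1 in control hearts overlapped widely, with a difference of -0.16 (SE 0.26) that became 0.04 when arrays were centred on their medians.

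On the dimmest Pex19 probe set, signals were 67.2, 122.2 and 211.5 in heterozygous hearts and 221.1, 272.5 and 323.0 in control hearts. Every heterozygous heart lay below every control heart, heart 6 of the heterozygous group coming nearest at 211.5. The geometric mean was 122.1 in heterozygous and 262.6 in control hearts, a log2 difference of -1.10 (SE 0.22), or 0.465 of the control level. Of the 3 probe sets it alone passed, and it no longer passed when any of 13 of the 15 arrays was omitted, heterozygous hearts 6 and 7 being the exceptions. With arrays centred on their medians the difference was -0.90, the groups overlapped and it did not pass.

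Of 11 measured peroxin genes other than Pex19, 0 passed the limma threshold and 0 had an unadjusted p under 0.05. The smallest p-values were those of Pex3, the membrane docking partner of PEX19, at 0.28 (limma adjusted p = 0.395) and Pex10, a ubiquitin ligase of the import machinery, at -0.27. In all, 3 of the 11 were higher and 8 lower, with a median of -0.12.

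Igsf8 had signals of 189.9, 209.5 and 349.2 in heterozygous hearts and 96.4, 112.15 and 178.1 in control hearts. Every heterozygous heart lay above every control heart, and the nearest values were 189.9 in heterozygous heart 6 and 178.1 in control heart 4. The geometric mean was 233.0 in heterozygous and 118.2 in control hearts, a log2 difference of 0.98 (SE 0.16), or 1.97-fold. The 2 highest values, 349.2 and 288.2, were those of heterozygous hearts 1 and 7, the 2 with the highest interferon-stimulated means. Without both, the difference was 0.80 and the probe set did not pass, with 5 heterozygous hearts left. Of 7 measured relatives and tetraspanin partners of Igsf8, 0 passed the limma threshold and 1 had an unadjusted p under 0.05, Tspan4 at 0.42 (limma adjusted p = 0.308). Cd82, a tetraspanin, differed by -0.26.

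Dusp23 had signals of 113.2, 162.4 and 294.4 in heterozygous hearts and 311.6, 448.35 and 653.1 in control hearts. Every heterozygous heart lay below every control heart, heart 7 coming nearest at 294.4. With arrays centred on their medians the groups overlapped, the difference was -1.11 and the probe set did not pass. The geometric mean was 179.8 in heterozygous and 448.5 in control hearts, a log2 difference of -1.32 (SE 0.23), or 0.401 of the control level. The 3 highest heterozygous values were those of hearts 7, 1 and 6, at 294.4, 250.1 and 223.0. Of 11 other atypical dual-specificity phosphatases, 0 passed the limma threshold and 3 had an unadjusted p under 0.05. Dusp12, which lies between Olfml2b and Pex19, differed by 0.59 (limma adjusted p = 0.107) on the brightest of 3 probe sets, which ran down to -1.15, and Dusp26 by -1.35 (adjusted p = 0.231).

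Olfml2b had signals of 326.0, 473.5 and 651.3 in heterozygous hearts and 87.8, 158.8 and 252.5 in control hearts. Every heterozygous heart lay above every control heart, the nearest being heterozygous heart 5 at 326.0 and control heart 1 at 252.5. The geometric mean was 489.1 in heterozygous and 144.6 in control hearts, a log2 difference of 1.76 (SE 0.24), or 3.38-fold. It was the member whose pass held whichever single array was omitted, in 15 of 15 fits, and the difference then ran from 1.66 to 1.87. These fits reuse the values that chose the gene, so they are a description only. Of 5 other olfactomedin genes measured, 0 passed the limma threshold and 0 had an unadjusted p under 0.05; Olfm1 differed by 1.26 (limma adjusted p = 0.352) and Olfm3 by 0.90.

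Markers of fibroblasts, which make much of the heart's extracellular matrix, were counted beside Olfml2b, and 0 of 10 passed the limma threshold. Their summed signal was 19273 to 36464 in heterozygous hearts and 14588 to 18916 in control hearts, without overlap, while 4 had an unadjusted p under 0.05 and 9 were higher. The sum adds raw signals, so the brightest genes weigh most in it. Dcn, the proteoglycan decorin, differed by 0.88 (limma adjusted p = 0.063) on its brightest probe set and by -0.47 on its other. Pdgfra, a growth factor receptor of fibroblasts, differed by 0.65 (limma adjusted p = 0.117) on its brightest probe set, and its 3 probe sets ran down to -0.38. Atrial markers, of which Sln, Myl7 and Myl4 passed and 7 of 10 had an unadjusted p under 0.05, had sums that overlapped in part, as given above. The part of either in the Olfml2b difference was not tested.

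**Figure D3:**
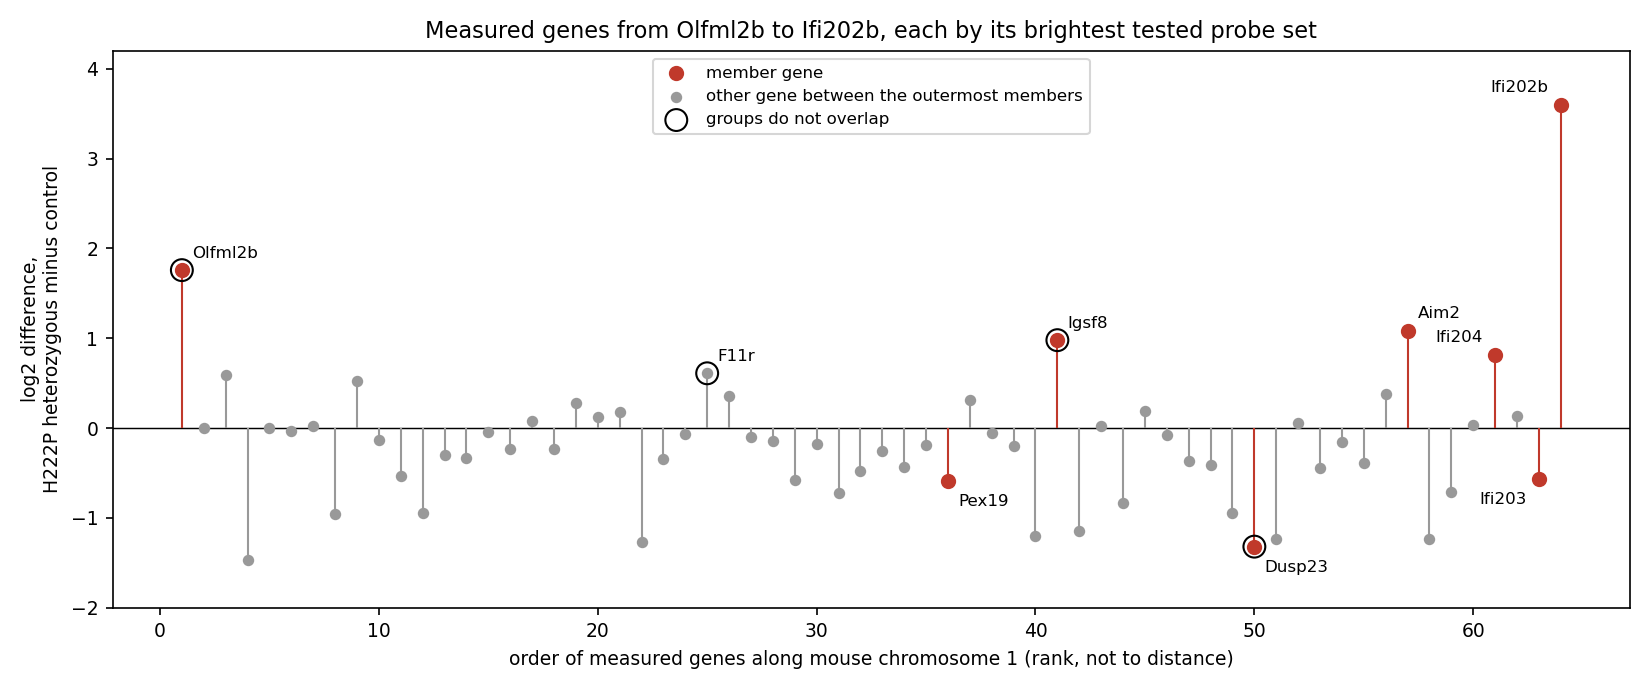
Log2 difference in signal (heterozygous minus control) of the 64 measured genes between Olfml2b and Ifi202b, each by its brightest probe set, in their order along chromosome 1; the 8 chosen genes are coloured, the 56 others grey, and a ring marks groups that do not overlap. Ifi202b (3.60), Olfml2b (1.76), Igsf8 (0.98) and Dusp23 (-1.32) were chosen with these differences known, which leaves no gene that passed the limma threshold among the 56 others.

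The interval from Olfml2b to Ifi202b was then read gene by gene, to see whether the genes between the members differed as well. RefSeq lists 162 genes there, 89 of them protein coding; 69 had a single-symbol probe set and 64 were measured, of which 56 are not members. None of the 56 passed (0, against 0.289% of all genes), a count taken after the genes chosen for their differences had been set apart, so it makes no contrast with them. Of the 56, 17 had an unadjusted p under 0.05, 30.4% of the 56 against 15.2% of all genes. 17 of the 56 were higher and 39 lower, with a median of -0.18, against -0.08 over all genes.

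In 1 of the 56 the groups did not overlap, against 0.589% of all genes. This was F11r, the junctional adhesion molecule A, which is named because of this value. Its signals were 655.6, 935.1 and 1058.3 in heterozygous hearts and 483.9, 578.2 and 638.0 in control hearts, a difference of 0.61 (limma adjusted p = 0.078). It passed without heterozygous heart 7, with a filter or a floor at a log2 signal of 6, and with a trended, robust prior.

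The measured genes next to Ifi202b were read as well. Before it lay Ifi203, Mndal and Ifi204, with values given above. After it lay Fmn2, a formin that nucleates actin, at -1.08 (limma adjusted p = 0.171), Rgs7, a regulator of G protein signalling, at 0.14, and Fh1, fumarate hydratase, at 0.14. None of these 6 genes passed the limma threshold. Of the 50 measured genes before the interval and the 50 after it 0 passed, and 7 before and 8 after had an unadjusted p under 0.05.

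**Figure D4:**
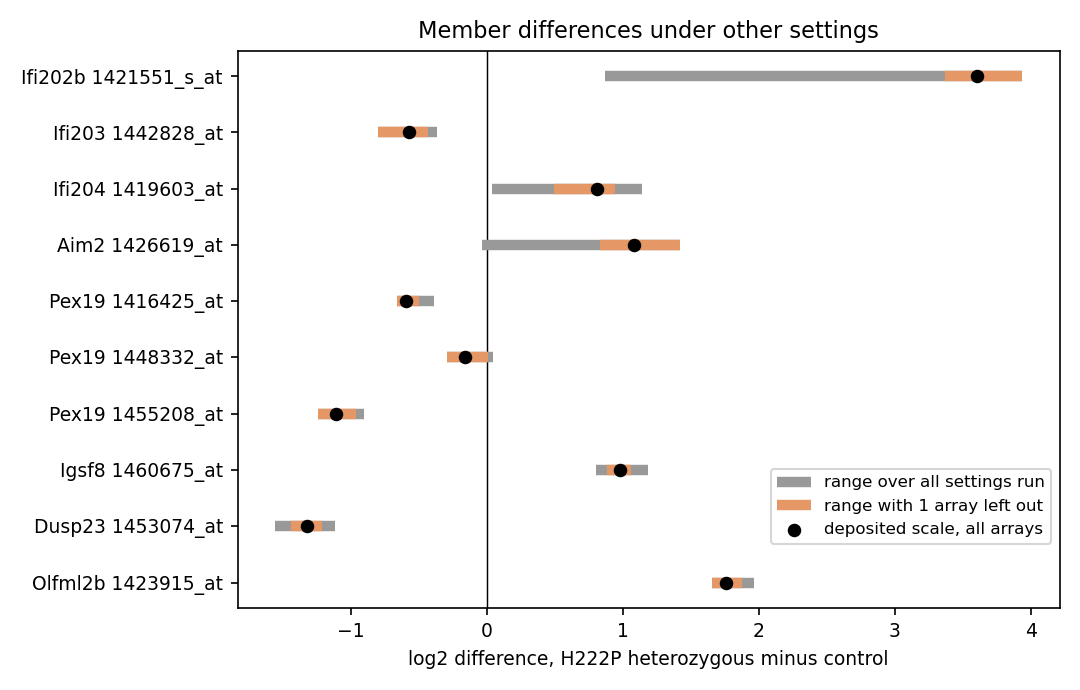
Log2 difference (heterozygous minus control) of each of the 10 probe sets: the point is the value on the deposited scale with all 15 arrays, the orange bar its range with 1 array omitted at a time and the grey bar its range over all settings run. The bars of Aim2 and of the middle Pex19 probe set reach across 0, and that of Ifi202b runs from 0.87 to 3.94.

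How far the passes depended on single arrays differed between members. The refits reuse the differences that chose the genes, so they describe the arrays and test no member. With 1 of the 15 arrays omitted at a time, Ifi202b passed in 10 fits, Dusp23 in 8, Igsf8 in 5 and Pex19 in 2. Ifi202b lost the pass without heterozygous heart 1 or 4 or control heart 3, 4 or 7. Dusp23 lost it without heterozygous heart 4 or control heart 1, 2, 3, 4, 6 or 7. Igsf8 kept it only without heterozygous heart 2, 6 or 7 or control heart 4 or 8. The differences themselves moved less, from 3.37 to 3.94 for Ifi202b, 0.88 to 1.06 for Igsf8 and -1.44 to -1.21 for Dusp23, and the number of passing probe sets over the whole table moved from 17 to 150 in the same fits.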

How the data were processed

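Signals of 45101 probe sets on 15 arrays were read from the deposited series table, 1 column an array, mapped by its label. The submitters' processing notes name GCRMA, without a version. The deposited intensity values are linear, with 1 decimal and the same trimmed mean of 250.0 on every array, which GCRMA output would not show, so the method that made them is not settled here. Detection calls and scan data were not used here. Log2 of the deposited signal was taken with no further scaling. The platform annotation gives 34958 probe sets 1 gene symbol, 932 several and 9211 none; 34754 of the first were found in RefSeq (GRCm38.p6) by gene ID, and 0 symbols changed. RefSeq coordinates served for gene order, and for the promoter windows printed.

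Probe sets with a log2 signal above 4 on at least 7 arrays (38870) were fitted on genotype with limma 3.58.1 in R 4.3.3 (lmFit, eBayes, two-sided) and adjusted by Benjamini-Hochberg over all of them; an adjusted p under 0.05 is called a pass. The fit was tested on simulated data. Geometric means, SDs and SEs are from log2 signals. A gene is represented by its brightest tested probe set. Exact permutation tests used scipy 1.17.1 in Python 3.11.15 and figures matplotlib 3.10.9. Levels of different probe sets served only to pick a gene's brightest and to order those of Pex19; marker sums add raw signals of different probe sets, so bright ones weigh most.

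The members, the 17 gene lists and the tests were chosen with earlier results of these data known. Named are all member probe sets, other Ifi200 genes, the 3 measured genes on each side of Ifi202b, the 5 genes most like Ifi202b, and Lmna. Of each other list, the genes that passed and the 2 with the smallest p are named. F11r, Nppa, Pycard, Casp1, Il18, Ifitm3 and Ifi27 were added after their values were seen. Same-numbered arrays of the 2 groups did not deviate together (r -0.06 to 0.06 over 7 pairs), and the main fit did not pair them. These values cannot show that equal numbers share no litter or batch, which the labels do not name. Alternatives were other filters, scalings, a floor, a trended and robust prior, a replicate block and the omission of each array, and, added after seeing the data, omission of heterozygous arrays 1 and 7.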

Additional observations from a re-analysis of the deposited data

Results flagged for a closer look

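In 22 groups of signals examined, those of the 10 probe sets and of the interferon-stimulated mean in each genotype, 1 held a sample far from the others, and chance flags about 1 in 20. Ifi204 had a signal of 5 in control heart 2, the lowest of the 8 control hearts. On the log2 scale its gap to the next control heart was 0.569 of their range. Without that heart the Ifi204 difference was 0.50 (log2, heterozygous minus control), against 0.81 with it, and the groups overlapped in both cases.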

How the results depend on the processing

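Of all probe sets tested, 98 passed, 35 higher and 63 lower in heterozygous hearts. The count was 192 with a filter at a log2 signal of 6, 65 with arrays centred on their medians, 65 after quantile normalization, 312 with a trended and robust prior, 287 with signals floored at 6, and 1 with the replicate block. It ran from 17 without control array 7 to 150 without heterozygous array 7. Centring on medians moved the median of all differences from -0.11 to 0.10 and turned the split to 51 higher and 14 lower, and quantile normalization gave 37 higher and 28 lower. Of the 10 member probe sets 5 passed, against 3 with centring, 0 with the replicate block and 2 without heterozygous arrays 1 and 7. Omission of 1 array gave 1 to 5. The labels do not say whether equal replicate numbers pair the samples. Of the 56 other interval genes 0 passed, against 1 with the filter at 6 and 1 with the trended, robust prior (F11r in both), 2 with the floor (F11r and Dusp12) and 0 to 1 with 1 array omitted. The interferon-stimulated difference of 0.02 changed sign to -0.037 when all probe sets of a gene were averaged, was 0.22 (exact permutation p = 0.354) with centring, and ran from -0.16 to 0.10 with 1 array omitted, never past the threshold. Of 190 alternative values of the member differences 189 stayed within the spread between replicates and kept their sign where the probe set had passed, the exception being Ifi202b at 0.87 with the floor. That spread is wide for dim probe sets. Aim2 moving from 1.08 to -0.03 and Ifi204 from 0.81 to 0.04 with the floor count as within it, so the 189 do not show stable values. The passes moved more, as given above. Signals near the low end of the scale limit Ifi202b in control hearts, and Ifi204 and Aim2 in both groups. The causes of these moves were not tested.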

Other observations

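Of the 967 measured genes of chromosome 1, 6 passed the limma threshold (0.620%, 5 higher and 1 lower in heterozygous hearts), and of the 903 outside the interval from Olfml2b to Ifi202b 2 passed (0.221%), against 0.289% of all genes. These shares include the genes chosen for their differences inside the interval and only the other genes outside it, so they describe the table and test nothing. In the 50 measured genes beyond Olfml2b the median difference was -0.02, and in the 50 beyond Ifi202b it was -0.08, with groups that did not overlap in 0 and 1 genes. Between the outermost members the median without them was -0.18.

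Beyond Ifi200 genes, blood and muscle marker lists showed the following. Alas2, the erythroid enzyme that starts haem synthesis, fell by 1.37 (log2, limma) and Ppbp, a platelet chemokine gene, fell by 1.97, the 2 of 8 erythroid and platelet markers that passed, and 8 of 8 were lower. Of 11 cardiomyocyte markers 0 passed, with 0 at an unadjusted p under 0.05 and a median of -0.02; Ryr2, the calcium release channel, differed by 0.18 and Ckm, muscle creatine kinase, by -0.26. Of 9 endothelial markers 0 passed, with 2 at an unadjusted p under 0.05, Kdr at 0.55 (limma adjusted p = 0.179) and Vwf at 0.71 (adjusted p = 0.275). Sln, which encodes the calcium pump regulator sarcolipin of atria, passed as higher on 1 of 2 probe sets (limma adjusted p = 0.0122), the other differing by -0.94. On the first, signals were 241.0 to 5110 in heterozygous hearts, 406.7 in control heart 6 and 2.8 to 12.2 in the other control hearts, near the low end of the scale, so no fold is given.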
